A study of Mus musculus with 30 samples.

Results

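The keratin genes were examined in whole eyes and hypothalamic blocks of wild-type (WT) mice and of mice without a working Per3, a gene of the circadian clock. Members were all probes whose gene name on the array began with Krt followed by a digit, which leaves out the keratin-associated proteins of hair. This gave 52 probes of 44 keratin genes among 41174 probes, and all 52 were found on the eye arrays by probe name. Of the 44 genes, 24 lay on chromosome 11, in the cluster of type I (acidic) keratins, and 20 on chromosome 15, in the cluster of type II (basic) keratins. The latter include Krt18, which is itself a type I keratin. The 30 arrays covered 7 WT and 7 Per3-/- eyes and 8 WT and 8 Per3-/- hypothalami, with 1 array per mouse and tissue. By shared genotype and replicate number, 14 mice were taken to have given both tissues. All were adult male littermates on a C57Bl/6J background. The Per3-/- allele carries a PGK-NEO cassette in place of an exon and the intron after it, in every tissue from conception. All mice of both genotypes had lived through an ultradian schedule of 3.5 h of light and 3.5 h of dark and were killed in the light of cycle 17, so no group stands for an ordinary day. Eye WT replicate 2 and eye Per3-/- replicate 1 were not analysed here.

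Keratins form the intermediate filaments of epithelial cells, as obligate pairs of a type I and a type II protein. Which pair a cell makes depends on its epithelium, so keratins are used to tell epithelia apart. Basal cells of stratified epithelia make KRT5 with KRT14 or KRT15. The corneal epithelium replaces the pair of the epidermis with KRT12, whose mutations cause a corneal dystrophy. The conjunctiva makes the mucosal pair KRT4 and KRT13 and, with its goblet cells, the simple-epithelial keratins KRT7, KRT8, KRT18 and KRT19. Cornified skin such as that of the lid makes KRT1 and KRT10, injured or fast-growing epithelium makes KRT6, KRT16 and KRT17, and hair follicles make a large set of their own. A whole eye holds cornea, the conjunctiva left on the globe and whatever adnexal tissue came with it, mixed with retina, lens, choroid and muscle. In such bulk RNA, fewer cells of a type and less RNA per cell cannot be told apart.

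Signals are given as log2 of the processed intensity relative to the 75th percentile of the same array, so a value of 0 is the signal at that percentile. Since probes differ in how brightly they bind, values compare 1 probe between arrays and not one gene with another. Between 71.4% and 80.7% of probes were well above background on an eye array and between 68.0% and 75.6% on a hypothalamus array, and no array was left out. Each tissue was run on its own 4 slides, so slide and tissue cannot be told apart, while each slide held both genotypes. The probe for Per3 itself read -3.13 in WT and -3.58 in Per3-/- eyes, a difference of -0.45 (SE 0.23, limma adjusted p = 1), and -0.51 (SE 0.0892, limma adjusted p = 0.0670) in the hypothalamus. Whether it lies in the deleted part was not examined, so it does not check the labels.

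The probes are 60 bases long, and their sequences decide which keratin is read. Those of the genes on which the results below turn are given 5′ to 3′ on the coding strand, with positions on mm9, all on the minus strand of the chromosome. The probe of Krt12, the keratin particular to the cornea, matches chr11:99277378-99278223, that of Krt4 chr15:101750158-101750736 and that of Krt13 chr11:99980710-99980948. Each spans more of the genome than its 60 bases (846, 579 and 239 bases), so it crosses at least 1 intron and reads spliced RNA.
Krt12: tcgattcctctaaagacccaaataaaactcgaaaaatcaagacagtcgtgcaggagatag
Krt4: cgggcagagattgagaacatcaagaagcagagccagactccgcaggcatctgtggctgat
Krt13: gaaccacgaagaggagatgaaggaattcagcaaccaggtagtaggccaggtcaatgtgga
Among 1318 pairs of probes for different keratin genes, the longest run of identical bases was 20, between the hair keratins Krt86 and Krt83, and the next was 13. Probes were not compared with whole transcripts, so this does not show whether a probe binds the RNA of another keratin. Related keratins share much of their rod domain, and this is seen where the probe of Krt19 (chr11:100002392-100002451) and the second probe of Krt10 (chr11:99247994-99248053) cover the same stretch of the protein family. Capitals mark the 26 bases that are identical when these probes are aligned.
Krt19: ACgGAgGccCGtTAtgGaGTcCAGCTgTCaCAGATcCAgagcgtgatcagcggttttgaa
Krt10: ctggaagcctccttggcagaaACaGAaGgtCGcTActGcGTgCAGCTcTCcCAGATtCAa
The longest run of capitals in this alignment is 5 bases.

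Most keratin genes were detected in the eye. Of the 52 probes, 37 (71.2%, 32 of 44 genes) were well above background on every eye array, beside 67.8% of all probes. On at least 1 eye array 51 were (98.1%), beside 85.5% of all probes. The exception was Krt82, a keratin of the hair cuticle. Detection on every eye array covered Krt12, 3 of 3 basal-layer genes, 8 of 8 genes of mucosal and simple epithelium, 4 of 4 stress or wound genes, 3 of 4 genes of the cornified epidermis and 8 of 18 genes of hair follicle and hair. In the hypothalamus, 27 probes (51.9%, 24 genes) were well above background on every array, beside 66.0% of all probes. There, 11 probes (21.2%) were above background on no array, beside 18.2% of all probes. The share of keratin probes detected on every eye array was therefore near that of all probes, and the hair keratins were the class most often below background there.

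**Figure D1:**
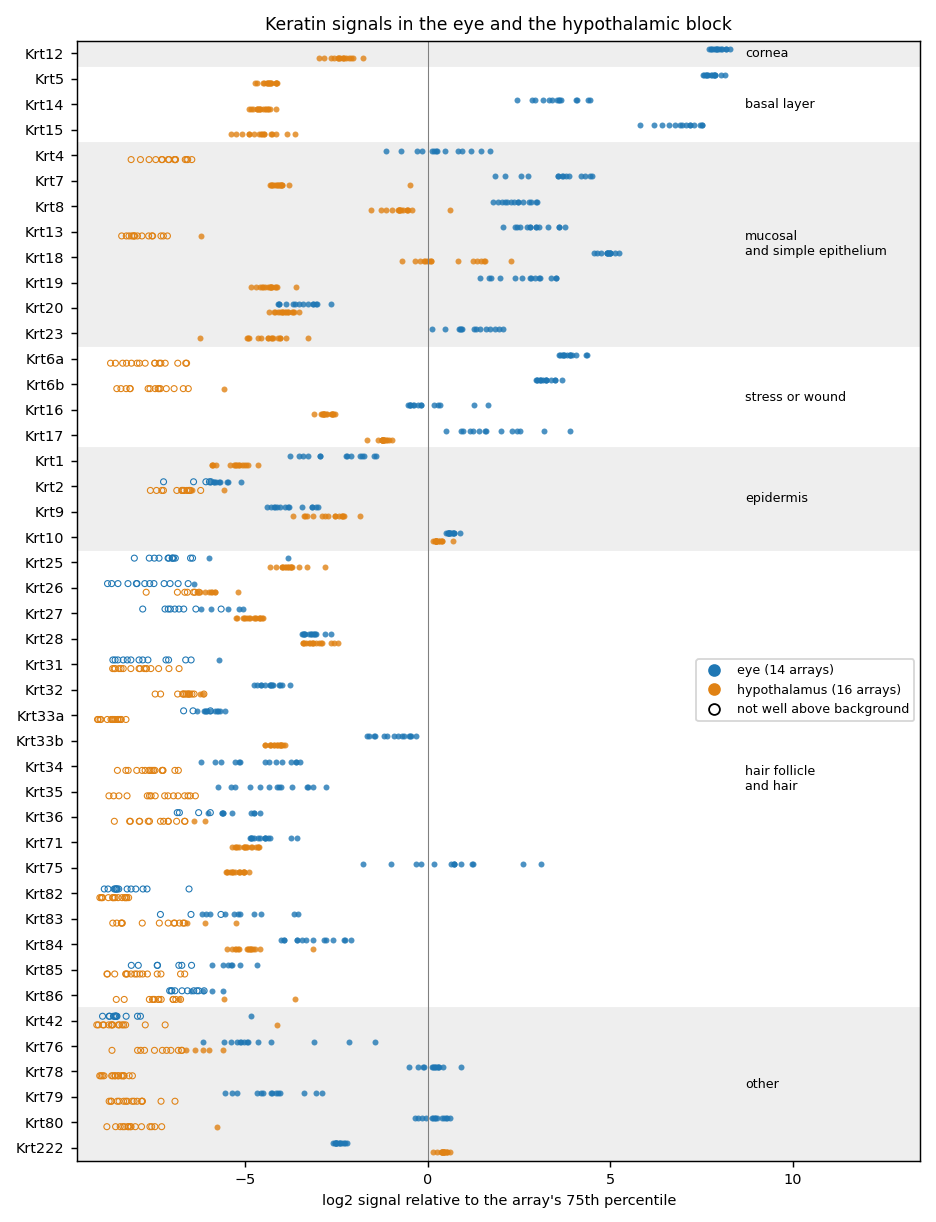
Signals of the 44 keratin genes (log2 of intensity, with 0 at the 75th percentile of an array) in 14 eyes (blue) and 16 hypothalamic blocks (orange), with 1 point per array, 1 probe per gene and open circles for arrays on which the probe was not well above background. Krt12, Krt5 and Krt15 lie far to the right in every eye, while Krt25 and Krt222 are to the right in the hypothalamus.

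The eye exceeded the hypothalamus for 41 of 52 keratin probes at an adjusted p under 0.05 (limma over all 30 arrays, mouse as a random block), beside 47.9% of all probes, and was below it for 6, beside 35.2% of all probes. The median difference was 2.71 on the log2 scale for keratin probes and 0.19 for all probes. Krt5, the type II keratin of basal cells, read 7.55, 7.77 and 8.15 (lowest, median, highest) in the 14 eyes and -4.74, -4.34 and -4.13 in the 16 hypothalami, a difference of 12.14 (SE 0.06) or 4509-fold. Krt12 read 7.71, 7.92 and 8.29 in eyes and -2.96, -2.37 and -1.76 in hypothalami, a difference of 10.33 (SE 0.09) or 1288-fold. The tissues did not overlap for either gene. Krt15, the type I keratin of limbal and other basal cells, differed by 11.49 (SE 0.17) and Krt14, its alternative in basal cells, by 8.10 (SE 0.15).

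Corneal markers were plentiful. Aldh3a1, the crystallin-like aldehyde dehydrogenase of the cornea, Slurp1, Upk1b, Lypd2 and Gsn were above background on every eye array. Aldh3a1 was above background on 0 of 16 hypothalamus arrays and at least 982-fold higher in the eye, and the other genes differed by 11.88, 8.29, 7.96 and 3.52 (limma, each at an adjusted p under 0.05), with Slurp1 above background on 12 of 16 hypothalamus arrays and Upk1b on 14. The goblet-cell markers Muc5ac (a gel-forming mucin), Agr2 and Fcgbp were higher in the eye by 4.45, 6.23 and 4.75 (2.67 with a second probe of Fcgbp), while Spdef, a transcription factor of goblet cells, differed by -1.45. Markers of cornified lid skin were mixed. Of the 9 genes of that list with a probe, 5 were higher and 2 lower in the eye by the probe of highest eye signal. By the probe of highest hypothalamus signal, 4 were higher and 3 lower. On every eye array, 4 were above background. Flg and Dsc1 were above background on 0 of 14 eye arrays, Krtdap on 6 and Ivl on 13. Lor and Sbsn, above background on every eye array, differed by -3.13 and -0.98.

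The mucosal and simple-epithelial keratins were also far higher in the eye. Krt4 was above background on 0 of 16 hypothalamus arrays and was at least 118-fold higher in the eye, a bound taken from the lowest signal well above background on each array or the probe's own signal, whichever was higher. Krt13 differed by 10.64 (SE 0.19) and by 8.24 with its other probe, and was above background on 1 of 16 hypothalamus arrays with the first probe. Krt7, a keratin of glands and ducts, differed by 7.39, Krt19 by 6.99, and Krt23 by 5.68. Krt18 and Krt8, the pair of simple epithelia, differed by less, 4.37 and 3.16, and were above background in every hypothalamus. Krt20 of gut and urothelium differed by only 0.45 (SE 0.12).

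Among the stress or wound keratins, Krt6a was above background on 0 of 16 hypothalamus arrays and at least 1361-fold higher in the eye. Krt6b differed by 10.66, with 1 of 16 hypothalamus arrays above background, Krt17 by 3.06 and Krt16 by 2.80. Krt78 was at least 102-fold higher in the eye, Krt80 differed by 8.11, with 1 of 16 hypothalamus arrays above background, and Krt79 was at least 4.72-fold higher. Of the follicle keratins, Krt75, which marks the companion layer of the hair follicle, differed by 5.86, Krt33b by 3.21, and Krt34 and Krt35 were at least 3.75-fold and 5.06-fold higher in the eye.

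The 6 probes lower in the eye were those of Krt222, Krt25, Krt26, Krt27, Krt9 and 1 of Krt1. Krt222, a keratin-like gene, read -2.58, -2.46 and -2.20 in eyes and 0.16, 0.44 and 0.60 in hypothalami, 7.23-fold higher in the hypothalamus with no overlap. Krt25, Krt27 and Krt26, keratins of the inner root sheath, differed by -3.03, -1.56 and -1.39 and were above background in 2, 5 and 1 of 14 eyes. With normexp background correction the Krt27 difference was -0.11 and no longer passed in limma. Krt9, of palm and sole skin, differed by -1.02. The last was 1 of 2 probes of Krt1, and these ran in opposite directions: -2.70 for the probe on the minus strand of the chromosome (chr15:101676107-101676166) and 2.84 for the one on the plus strand (chr15:101678904-101678963), which was designed from a testis cDNA. The level of Krt1 in either tissue is therefore uncertain. The probes of Krt10 differed by 0.35 and 1.85, and 5 probes (of Krt2, Krt28, Krt31, Krt42 and Krt86) did not pass in either direction.

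Genotype was compared in each tissue, which asks whether loss of Per3 altered the keratins. In the eye, 0 of 52 keratin probes passed an adjusted p under 0.05 in limma, beside 0.0194% of all probes, and 0 passed with the methods' t-test after the same adjustment. At an unadjusted p under 0.05, 1 keratin probe passed in limma (1.8% of all probes did) and 1 with the methods' t-test. The Per3-/- minus WT differences ran from -0.34 to 0.69 over all 52 probes and from -0.28 to 0.51 over the 37 probes above background on every array, so none reached 2-fold. The mean was above WT in Per3-/- eyes for 31 of 52 keratin probes (59.6%), beside 51.9% of all probes.

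Krt5 was the probe past the unadjusted limit. WT eyes read 7.67, 7.88 and 8.15 (lowest, median, highest) and Per3-/- eyes 7.55, 7.64 and 7.85. All 7 Per3-/- eyes lay under the WT mean and 4 lay under every WT eye, but the ranges overlapped. The difference was -0.20 (SE 0.08, 95% interval -0.38 to -0.01), with an unadjusted limma p of 0.0363, an exact two-sided permutation p of 0.0291 and an adjusted limma p of 1. The unadjusted p no longer passed when any 1 of 7 eyes (Per3-/- replicates 2, 3 and 5 and WT replicates 1, 5, 7 and 8) was left out. Within slides 1 to 4 it was -0.41, -0.06, -0.17 and -0.25. Its partner in the cornea, Krt12, read 7.91, 7.99 and 8.29 in WT and 7.71, 7.83 and 8.17 in Per3-/- eyes. Here 5 of 7 Per3-/- eyes were under every WT eye and the other two were among the higher values. The difference of -0.16 (SE 0.09, 95% interval -0.35 to 0.03) did not pass, with an exact permutation p of 0.0868.

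The other basal keratins showed wider spreads and smaller shifts. Krt14 read 2.94, 3.41 and 4.39 in WT and 2.45, 3.60 and 4.46 in Per3-/- eyes, a difference of 0.10 (SE 0.30). Krt15 read 6.42, 7.07 and 7.47 in WT and 5.83, 6.96 and 7.53 in Per3-/- eyes, a difference of -0.07 (SE 0.27). For both genes the lowest and the highest eye were Per3-/-, and the groups overlapped throughout.

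**Figure D2:**
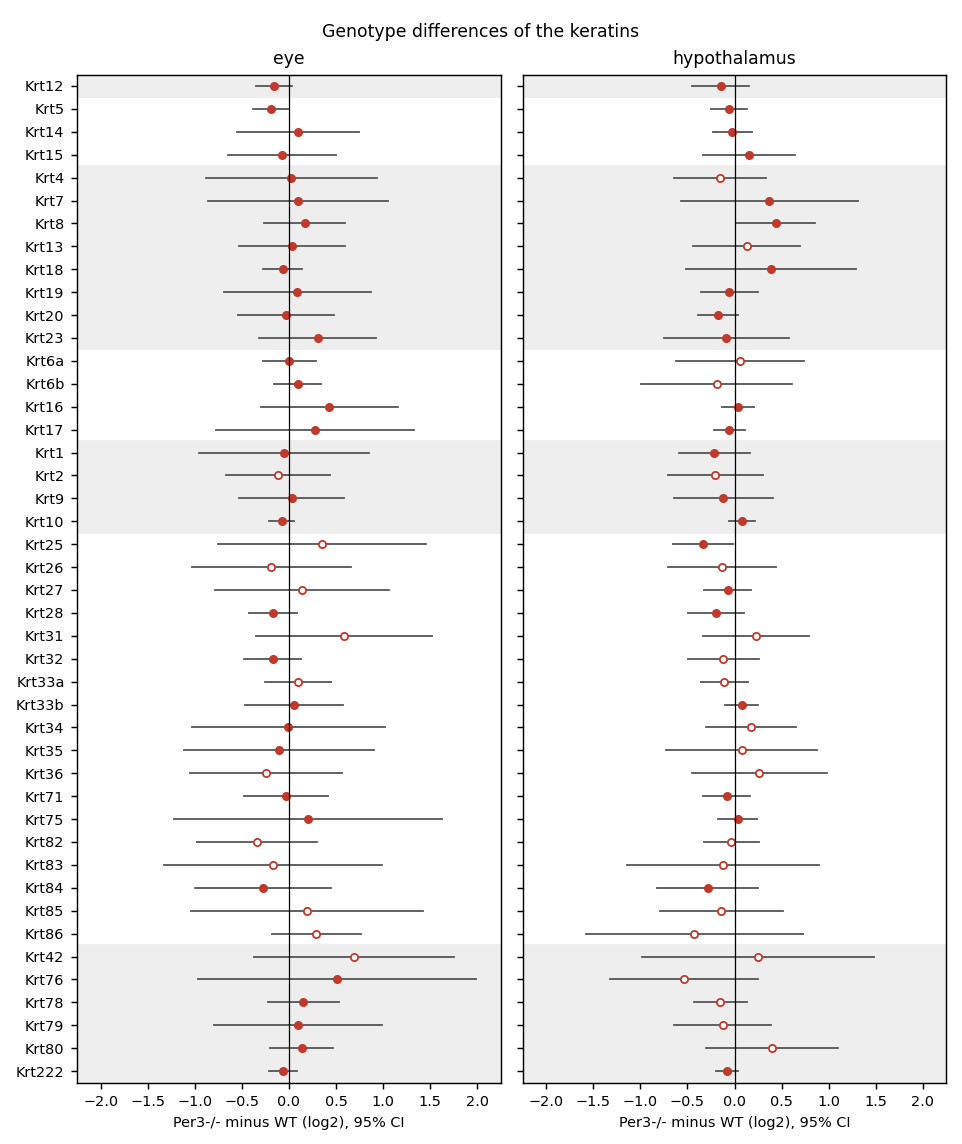
Per3-/- minus WT difference (log2) of the 44 keratin genes in the eye (left, 7 and 7 mice) and the hypothalamus (right, 8 and 8 mice), with bars for the 95% interval of the limma fit and open circles where neither genotype was above background on every array. In the eye only the Krt5 interval excludes 0, from -0.38 to -0.01, and its adjusted p was 1.

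The mucosal and simple-epithelial keratins differed little by genotype. Of their 11 probes, which covered 8 genes, 9 had a higher mean in Per3-/- eyes, beside 51.9% of all probes. Some of these genes rose and fell together across eyes (r = 0.94 for Krt4 and Krt13), so the probes are not separate observations. Krt4 read -0.28, 0.23 and 1.45 in WT and -1.13, 0.47 and 1.71 in Per3-/- eyes (difference 0.03, SE 0.42). Krt13 read 2.45, 2.96 and 3.61 in WT and 2.06, 2.81 and 3.76 in Per3-/- eyes (0.04, SE 0.26). Both had their lowest and highest eyes in the Per3-/- group. Krt7 read 2.12, 3.58 and 4.45 in WT and 1.85, 3.71 and 4.50 in Per3-/- eyes (0.09, 95% interval -0.86 to 1.05). Krt23 read 0.47, 0.94 and 1.71 in WT and 0.12, 1.61 and 2.08 in Per3-/- eyes (0.30, SE 0.29, exact permutation p = 0.344). The widths of these intervals leave room for differences near 2-fold in either direction for Krt7. The goblet-cell markers Muc5ac, Spdef, Agr2 and Fcgbp also had higher means in Per3-/- eyes (by 0.82, 0.71, 0.63 and 0.33), and none passed an unadjusted p under 0.05. Their part in the keratin means was not tested. Krt18 read 4.76, 4.99 and 5.12 in WT and 4.56, 4.93 and 5.24 in Per3-/- eyes, with a difference of -0.07 (SE 0.10).

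All 4 stress or wound probes had a higher mean in Per3-/- eyes, beside 51.9% of all probes, but by 0.00 for Krt6a, and none passed. Krt16, made by activated keratinocytes, read -0.49, -0.26 and 0.29 in WT and -0.55, -0.18 and 1.66 in Per3-/- eyes, a difference of 0.43 (SE 0.34, 95% interval -0.30 to 1.16, exact permutation p = 0.289). Replicates 3 and 8 of Per3-/- (1.28 and 1.66) lay well above every WT eye, and the other five ran from -0.55 to 0.35. The difference was 0.19 without replicate 8. Krt17 read 0.92, 1.57 and 3.18 in WT and 0.51, 2.31 and 3.91 in Per3-/- eyes (0.28, SE 0.49, exact permutation p = 0.604). Within slides 1 to 4 the Krt17 difference was 0.90, 1.98, -0.36 and -1.10, so its direction changed between slides. Krt6a read 3.69, 3.81 and 4.35 in WT and 3.59, 3.91 and 4.36 in Per3-/- eyes, with a difference of 0.00 (SE 0.13).

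The largest mean difference among probes above background on every eye array was that of Krt76, a keratin of oral and other mucosa. It read -6.17, -5.15 and -2.16 in WT and -5.59, -4.93 and -1.44 in Per3-/- eyes (0.51, SE 0.69, exact permutation p = 0.495). Its high eyes were Per3-/- replicate 4, WT replicate 8 and Per3-/- replicate 8, and the difference was 0.0451 without the first of these and 0.95 without the second. Krt75 read -1.01, 0.65 and 2.62 in WT and -1.77, 0.91 and 3.09 in Per3-/- eyes (0.20, SE 0.66), and differed by 0.54, 2.51, -0.15 and -1.92 within slides 1 to 4. Krt84 read -4.03, -2.83 and -2.09 in WT and -3.94, -3.45 and -2.26 in Per3-/- eyes (-0.28, SE 0.34). In each of these genes the groups overlapped over most of their range.

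Variation between eyes was large for keratins. Over the 37 keratin probes above background on every eye array, the SD between eyes of a genotype had a median of 0.519 (range 0.0945 to 1.37), beside 0.183 over all 27934 such probes. The 90th percentile of all such probes was 0.472, and 21 of 37 keratin probes (56.8%) exceeded it. Krt12 and Krt5 were not among them. Their SDs of 0.160 and 0.149 lay at the 39.7th and 33.7th percentile of all such probes, and highest over lowest eye was 1.49-fold and 1.52-fold. The same ratio was 29.2-fold for Krt75, 26.4-fold for Krt76, 10.6-fold for Krt17, 7.16-fold for Krt4, 6.29-fold for Krt7, 4.23-fold for Krt19 and 4.01-fold for Krt14. Krt12 and Krt5 therefore varied little over the 14 eyes, whereas the mucosal Krt4, Krt7 and Krt19 and the follicle keratin Krt75 varied widely. A wide spread of keratin probes was not particular to the eye. In the hypothalamus their median SD was 0.280, beside 0.131 for all detected probes. There, 13 of 27 detected keratin probes (48.1%) exceeded the 90th percentile of all detected probes.

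**Figure D3:**
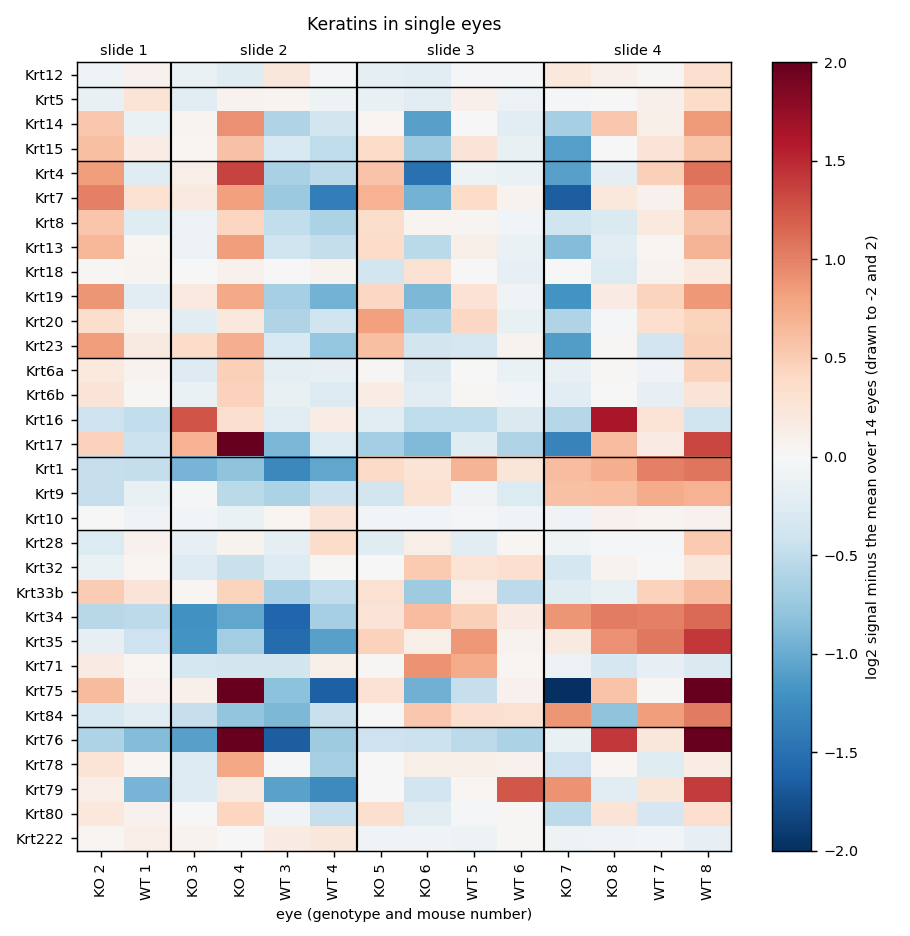
Heat map of the keratin probes above background on every eye array, with 1 probe per gene. Colour is the difference of each eye from the mean over the 14 eyes (log2, drawn to -2 and 2), columns are eyes ordered by slide (KO is Per3-/-), and rows are genes grouped by class. Per3-/- replicate 4 and WT replicate 8 are high and Per3-/- replicate 7 is low for Krt4, Krt7, Krt13, Krt19, Krt17 and Krt75, while Krt12 and Krt5 stay near 0.

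The same eyes were high or low for many of these genes. Per3-/- replicates 2 and 4 and WT replicate 8 held the top 3 places for Krt4 (1.19, 1.71 and 1.45), Krt13 (3.59, 3.76 and 3.61) and Krt19 (3.52, 3.39 and 3.50). Per3-/- replicate 7 was lowest for Krt7 (1.85), Krt13 (2.06), Krt19 (1.44), Krt23 (0.12), Krt15 (5.83), Krt17 (0.51) and Krt75 (-1.77). Over the 14 eyes the corneal marker Aldh3a1 ranged only from 3.20 to 3.60, while the mean of the 4 goblet-cell markers ranged from -2.84 to -0.72 over WT eyes and from -2.27 to -0.44 over Per3-/- eyes. Muc5ac was high in Per3-/- replicate 4 (0.96) and WT replicate 8 (1.11), as the mucosal keratins were, but not in Per3-/- replicate 2 (-0.17). It was highest in Per3-/- replicate 5 (1.11), outside the top 3 for Krt4, Krt13 and Krt19. It was also high in Per3-/- replicate 6 (1.06), where Krt4 was at its lowest (-1.13). The part that the amount of conjunctiva on each eye has in this was not tested.

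Pairs of keratins were compared across the 14 eyes after the genotype means were removed. The 10 pairs were set from known filament partners and, in some, across compartments, and 3 passed an adjusted p under 0.05 by permutation. The mucosal pair Krt4 and Krt13 had a Pearson r of 0.94 (permutation p = 1e-05, the smallest that 100000 permutations can give, adjusted p = 0.0001) and a Spearman rho of 0.92 (permutation p = 9e-05). It was 0.97 with slide means removed as well and 0.95 without the 2 eyes farthest from the median. Krt8 and Krt19 had r = 0.84 (permutation p = 0.00043, adjusted 0.00215) and rho = 0.88 (permutation p = 0.00015), with 0.86 after removal of slide means and 0.77 without 2 eyes. The genes of each of these pairs lie on different chromosomes, and no probes of such pairs share a run of more than 13 bases. Probes were compared only with each other, so binding of a probe to the RNA of the partner gene was not examined. Krt6a and Krt17 had r = 0.76 (permutation p = 0.00521, adjusted 0.0174) and rho = 0.56 (permutation p = 0.0714). That relation rested on 2 eyes, Per3-/- replicate 4 and WT replicate 8, since r was 0.34 without them, and it was 0.81 with slide means removed.

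The corneal and basal pairs were less tight. For Krt5 and Krt14, r was 0.56 (permutation p = 0.0299, adjusted 0.0749) and rho 0.52 (permutation p = 0.0615). For Krt5 and Krt12, r was 0.53 (permutation p = 0.0555, adjusted 0.111) and rho 0.50 (permutation p = 0.0658), falling to 0.16 with slide means removed. Neither passed. The simple-epithelial partners Krt8 and Krt18 had r = 0.16 (permutation p = 0.590, adjusted 0.833, rho 0.33), and the wound partners Krt6a and Krt16 had r = -0.09 (permutation p = 0.804, adjusted 0.835, rho -0.01). Across compartments, Krt12 gave r = -0.14 with Krt4 (permutation p = 0.666, adjusted 0.833, rho -0.16) and 0.21 with Krt10 (permutation p = 0.488, adjusted 0.813, rho 0.35).

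**Figure D4:**
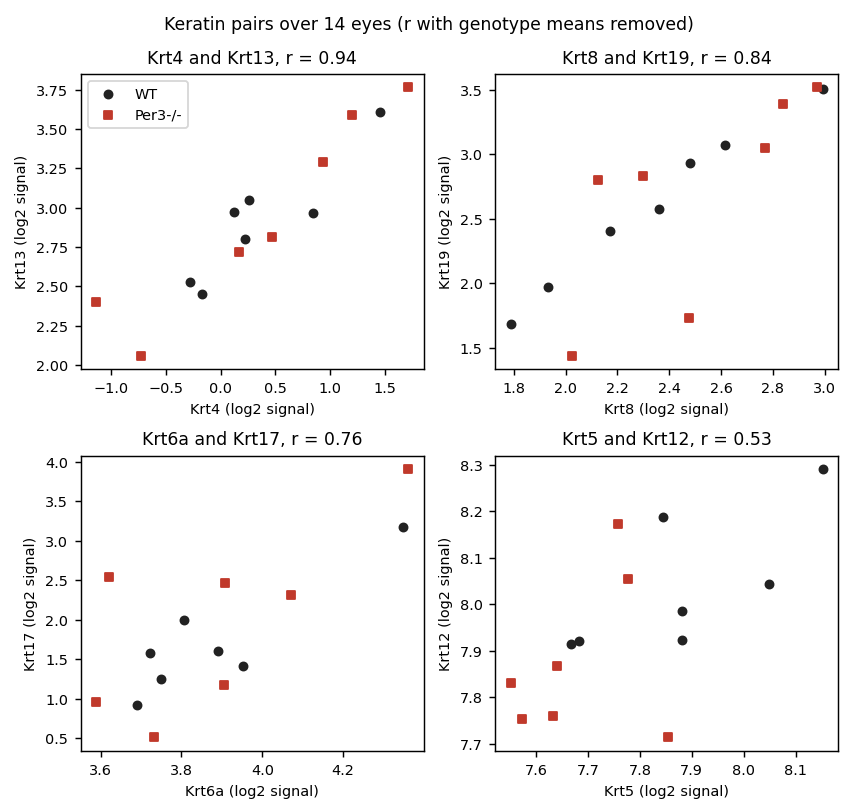
Signals (log2 of intensity, with 0 at the 75th percentile) of 4 pairs of keratins, 1 point per eye, WT in black circles and Per3-/- in red squares, with Pearson's r after removal of genotype means. Krt4 and Krt13 (0.94) and Krt8 and Krt19 (0.84) form a line over all eyes, while for Krt6a and Krt17 (0.76) the 2 eyes at the upper right set the slope.

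Some keratin probes varied with the slide, at about the rate of all probes. More of the spread lay between slides than within them for 10 of 37 detected keratin probes (27.0%), beside 27.2% of all detected probes. Differences between slides made up 19.3% (median) of the spread of the detected keratin probes, beside 33.9% for all detected probes, but 95.5% for the plus-strand probe of Krt1, 94.5% for Krt34, 88.6% for the second Krt10 probe and 84.9% for Krt35. For these 4 of 37 probes the 6 arrays of slides 1 and 2 did not overlap the 8 arrays of slides 3 and 4, beside 4.24% of all probes above background on every eye array. That Krt1 probe ran from -3.77 to -2.94 on the first pair of slides and from -2.23 to -1.41 on the second, while the minus-strand probe of Krt1 ran from -3.73 to -3.32 and from -3.81 to -3.42, with 13.1% of its spread between slides. Krt34 ran from -6.20 to -5.14 and from -4.46 to -3.48, and Krt35 from -5.73 to -4.34 and from -4.11 to -2.77. All 4 probes were higher on slides 3 and 4. The plus-strand probe of Krt1 and the reported probe of Krt10 had r = -0.08 (permutation p = 0.835, adjusted 0.835, rho 0.14). With the second Krt10 probe, which followed the slides with that Krt1 probe, r was 0.95 (permutation p = 1e-05, adjusted 5e-05, rho 0.94). Whether the plus-strand probe reads Krt1 mRNA was not settled, so neither value tests the epidermal partners. The second Krt10 probe was tried after its values had been seen. Slide shares of Krt4, Krt19 and Krt75 were 6.47%, 5.76% and 2.56%, so the eyes high in mucosal keratins were not those of 1 slide.

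In the hypothalamus, 0 of 52 keratin probes passed an adjusted p under 0.05 between genotypes in limma, beside 0.0413% of all probes, and 0 passed with the methods' t-test. At an unadjusted p under 0.05, 2 passed in limma, beside 2.82% of all probes, and 0 with the methods' t-test. Krt8 read -1.54, -0.78 and -0.57 in WT and -0.98, -0.62 and 0.61 in Per3-/- hypothalami (0.44, SE 0.20, 95% interval 0.02 to 0.86, exact permutation p = 0.0337, adjusted limma p = 0.991). The groups overlapped, and the highest value was Per3-/- replicate 1. Within slides 1 to 4 the difference was 1.15, 0.34, -0.01 and 0.27, and with 1 replicate left out it ran from 0.28 to 0.50. The second probe of Krt8 did not pass the unadjusted limit. Krt25, of the inner root sheath, read -4.0, -3.73 and -2.81 in WT and -4.31, -3.89 and -3.73 in Per3-/- hypothalami (-0.33, SE 0.15, unadjusted limma p = 0.0406, exact permutation p = 0.0393).

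Krt18, the partner of Krt8, read -0.34, 0.04 and 1.35 in WT and -0.70, 0.78 and 2.30 in Per3-/- hypothalami (0.39, SE 0.43). It was 0.83 or above in 7 mice, Per3-/- replicates 1, 3, 4 and 6 and WT replicates 2, 5 and 6, and 0.09 or below in the rest. Those same 7 blocks held the high values of the choroid plexus markers. Ttr, the transthyretin of choroid plexus, ran from 0.09 to 3.03 in them and from -6.29 to -1.44 in the other 9, and Kl from -0.80 to 0.94 in them and -1.92 or below in the other 9. All 5 genes of that list were above background on every hypothalamus array, and its mean ranged from -2.64 to 0.97 in WT and from -2.52 to 1.23 in Per3-/- blocks. The part of choroid plexus in the Krt18 and Krt8 signals was not tested. Krt7 read -4.30, -4.04 and -3.81 in WT and -4.33, -4.13 and -0.47 in Per3-/- hypothalami (0.37), and was -0.0920 without replicate 1. That mouse also held the highest pituitary hormone signals (Gh 8.21, Prl 8.15), followed by WT replicate 5 (3.60 and 4.68). The mean of the 5 pituitary markers ranged from -3.92 to 1.03 in WT and from -3.87 to 5.81 in Per3-/- blocks, and without these 2 mice 1 keratin probe passed the unadjusted limit and 0 the adjusted one.

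**Figure D5:**
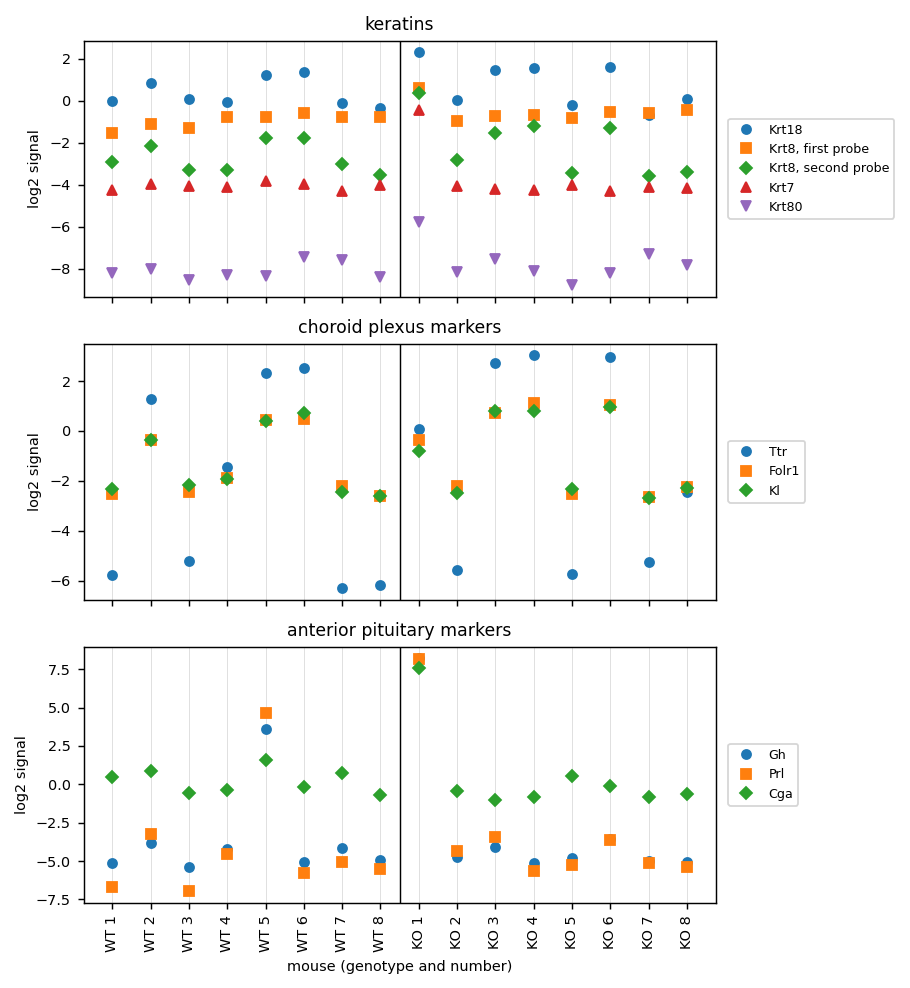
Signals (log2 of intensity, with 0 at the 75th percentile) of keratins (top), choroid plexus markers (middle) and anterior pituitary markers (bottom) in the 16 hypothalamic blocks, with mice on the horizontal axis (KO is Per3-/-) and colour and shape by gene. Per3-/- replicate 1 stands apart for Krt7 at -0.47, and the blocks with high Krt18 are those with high Ttr.

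The genotype differences of eye and hypothalamus were compared with each other over the mice of both tissues. The interaction passed an adjusted p under 0.05 for 0 of 52 keratin probes in limma, beside 0.00486% of all probes, and an unadjusted p under 0.05 for 0, beside 2.21% of all probes. The lowest unadjusted limma p among them was 0.0705.

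The partners of keratins in the cell were measured on the same arrays. Of 20 genes for desmosomes, hemidesmosomes and keratin linkers, which anchor the filaments to the membrane, 19 were above background on every eye array. By the probe of highest eye signal, 19 were higher and 0 lower in the eye (median difference 4.25), beside 47.9% and 35.2% of all probes. By the probe of highest hypothalamus signal, 18 were higher and 1 lower, with a median of 3.55. Pkp1, a desmosomal plaque protein, was above background on 0 of 16 hypothalamus arrays and at least 1113-fold higher in the eye. Col17a1, the hemidesmosomal collagen, differed by 11.14, with 4 of 16 hypothalamus arrays above background. By genotype in the eye 0 of 20 passed an adjusted p under 0.05 in limma, beside 0.0194% of all probes. Unadjusted, 1 passed, Col17a1 at -0.31 (SE 0.12), beside 1.8% of all probes. Of 12 transcription factors of surface epithelium, 11 had a probe and all 11 were higher in the eye, beside 47.9% of all probes. Among them were Elf3 by 9.94 (above background in 1 of 16 hypothalami), Ehf by 7.33 and Pax6, the master regulator of eye development, by 4.81. None of the 11 passed by genotype in the eye, adjusted or unadjusted. Of 14 intermediate filament genes that are not keratins, 8 were higher and 6 lower in the eye, beside 47.9% and 35.2% of all probes. Their median difference was 0.81, and 0 passed by genotype in the eye, adjusted or unadjusted.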

How the data were processed

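RNA of whole eyes (7 WT, 7 Per3-/-) and hypothalamic blocks (8 WT, 8 Per3-/-) was hybridised by the authors to 1-colour Agilent arrays of 60-mer probes, 1 array per mouse and tissue with no pooling. The deposited processed intensity of each spot is on a linear scale, background-subtracted by the scanner software, and arrays were not normalized to each other. Log2 values centred per probe, deposited as well, served as an alternative. The eye arrays name mm8 and hold no positions, so mm9 positions of the hypothalamus arrays were used.

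Intensities of 41174 probes (controls excluded) were divided by their array's 75th percentile and taken to log2. Up to 91 spots per array, marked uneven or outlying by the software, were dropped. Detection is the software's own mark. Where a gene had several probes, that of highest mean eye signal was reported, and Krt83 carries the name Krt87 now. limma 3.58.1 in R 4.3.3 compared genotypes within a tissue, and the tissues and the interaction over 30 arrays with mouse as a random block (correlation 0.0590), with two-sided p-values adjusted by Benjamini-Hochberg over every probe. On simulated data the eye comparison recovered 70% of changes of 1 (log2) and 89% of changes of 2. The changed probes were drawn at random from all 41174, and recovery was not measured for keratins. Detected keratin probes varied more between eyes (median SD 0.519, beside 0.183 for all detected probes). Correlations used 100000 permutations within genotype, in Python 3.11.15 with scipy 1.17.1. Named genes were Krt12, Krt5, and keratins detected in an eye group that were among the 6 brightest, the 6 of largest spread or the 6 of largest genotype difference. The members, lists and classes were chosen with earlier results of these data known. Same-numbered WT and Per3-/- samples are different mice, so genotypes were not paired in the main fit. Such samples lay on the same slide, and their deviations from the group means were related in most eyes. The correlations were 0.560, 0.320, 0.485, 0.00162, 0.679 and 0.627 for eye replicates 3 to 8, and -0.204 to 0.396 in hypothalami. Alternatives were quantile normalization, normexp (offset 50), marked spots kept, the deposited log2 values, dim probes left out, slide or number as a block, the methods' t-test and each replicate left out. The labels give tissue, genotype and replicate number, and nothing on how the mice were raised. That a shared genotype and number marks the same mouse in both tissues was assumed. Precision is limited by how many arrays there were. Part of the corneal marker list is not reported here.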

Additional observations from a re-analysis of the deposited data

Results flagged for a closer look

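For 17 keratin genes, 58 groups of 7 or 8 samples were searched for 1 sample far from the rest by Dixon's ratio, which chance exceeds in about 1 in 20 groups, and 5 (8.62%) exceeded it. Krt7 in the hypothalamus of Per3-/- replicate 1 was -0.47, with the next at -4.01, and Krt8 in the same block was 0.61, with the next at -0.44. This is the mouse with the highest pituitary hormone signals, whose part was not tested. Krt17 in the hypothalamus of Per3-/- replicate 7 was low at -1.67, with the next at -1.26. Krt84 in the hypothalamus of WT replicate 1 was high at -3.13, with the next at -4.58. In the eye, Krt6a of WT replicate 8 was high at 4.35, with the next at 3.95, and this eye was also among the highest for Krt4, Krt13, Krt17 and Krt75.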

How the results depend on the processing

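No keratin probe passed an adjusted p under 0.05 by genotype or interaction under any alternative run, and the 41 probes higher in the eye became 34 (dim probes left out) to 42. Of 1099 values under alternatives, 1049 kept their direction and side of the threshold or stayed within 1.5 times. The unadjusted count in the eye (1) was 0 with quantile normalization, 2 with slide as a block, 0 on slides 3 and 4 only, and 0 to 3 with 1 replicate left out (0 without Per3-/- 2, 3 or 5 or WT 1, 5, 7 or 8, and 3 without Per3-/- 7). In the hypothalamus (2) it was 11 with normexp, 0 with slide as a block, 0 with the methods' t-test, 1 without the 2 mice with pituitary markers and 0 to 4 with 1 replicate left out (0 without Per3-/- 7 or WT 1, 1 without Per3-/- 2, 3 or 6 or WT 2, 4 or 5, 4 without Per3-/- 8 or WT 7). For the interaction (0) it was 1 with normexp and 0 to 1 with 1 replicate left out (1 without eye Per3-/- 8, eye WT 8 or hypothalamus WT 2).

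With the replicate number as a block, 1 probe passed unadjusted in the hypothalamus and the eye count stayed at 1. The numbers are shared by different mice, and this pairing changed no other call.

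The direction of 4 eye differences turned on slides 3 and 4 only: Krt17 -0.73, Krt23 -0.17, Krt75 -1.04 and Krt76 -0.25. With 1 replicate left out, Krt17 ran from -0.0462 (without Per3-/- 4) to 0.52 and Krt75 from -0.19 (without Per3-/- 4, and -0.0542 without WT 4) to 0.62, while Krt16 ran from 0.19 to 0.56, Krt23 from 0.19 to 0.52, Krt76 from 0.0451 to 0.95 and Krt84 from -0.45 to -0.13. In the hypothalamus Krt7 ran from -0.0920 (without Per3-/- 1) to 0.46 with 1 replicate left out and was -0.0550 without the 2 pituitary mice, and Krt80 was -0.10 with normexp. Between tissues, Krt27 fell short with normexp (-0.11). Keratin probes detected in the hypothalamus rose from 27 on every array to 41 on at least 1. Pairs past the threshold numbered 5 with normexp, where Krt5 passed with Krt14 and with Krt12. For Krt1 (plus-strand probe) and Krt10, r was 0.62 without 2 eyes and 0.95 with the other Krt10 probe. For Krt12 and Krt10 it was -0.0658 with slide means removed, and for Krt12 and Krt4 0.0120 with normexp. The cause was not tested. Subsets of slides and mice, and the other Krt10 probe, were chosen after seeing the data. Signals near background limit the hair keratins most, and intervals such as that of Krt7 in the eye (-0.86 to 1.05) show what 7 eyes a group resolve.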

Other observations

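Across the 14 eyes, the genes whose signals followed Krt12 most closely among 27884 probes above background, as a description with no test, were Cwc25 (r = 0.83), 1700018L02Rik (0.81), Egln3 (0.81), Septin2 (0.80) and Gpr107 (0.79). Keratins were left out before this ranking, and none of these genes is on the lists of corneal markers. The points share slides and the same scaling, and Krt12 itself varied by only 1.49-fold over the eyes, with 58.0% of its spread between slides.

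Markers of other cell types of the eye were above background in every eye. The retinal photoreceptor list (6 of 6 genes above background on every eye array) had a mean of up to 6.49 in WT and 6.46 in Per3-/- eyes, with the lowest eye at 6.2 in both groups, and the lens list (6 of 6) of 6.86 to 7.45 and 6.69 to 7.30. The extraocular muscle list (5 of 5) ranged from 4.26 to 5.50 and from 4.53 to 5.66, and the lacrimal and Harderian gland list (5 of 5) from 0.863 to 1.53 and from 0.451 to 1.78. In the last list Car6, a secreted carbonic anhydrase, was lower in Per3-/- eyes by -1.02 (SE 0.0992, limma adjusted p = 0.000924), the 1 gene of these lists past that threshold.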
